A study of Mus musculus with 4 samples.

Results

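Sesn1, Sesn2, Ddit4, Gls2, Trp53inp1, Zmat3 and Phlda3 are 7 mouse genes that the transcription factor p53 is known to activate and that act in metabolism and in the response to stress. They were chosen by name from 21631 protein-coding genes, and a peak was counted for a gene when its midpoint lay inside the RefSeq gene interval or within 5 kb of it (mm10). By that rule 76 peaks belonged to these genes: the mTEClo lists gave 22 and 15 of them and the mTEChi lists 22 and 17. Here and throughout, replicate 1 stands first where a pair of values is given for a state. mTEClo and mTEChi are 2 populations of medullary thymic epithelial cells, the cells that show self-antigens to maturing T cells. The suffixes usually refer to surface MHC class II, scarce on lo cells and abundant on the more mature hi cells. Both came from thymi of mice aged 4 to 5 weeks and wild type for Trp53, were enriched for the epithelial surface protein EpCAM and then stained for sorting. No strain, and no pooling of mice, is named in the labels used here. CUT&RUN was run on 500000 cells per condition: an antibody in permeabilised cells tethers a nuclease, and the short fragments it releases are sequenced. The titles name an antibody to p53 and the protocol text names one to BAF155, a chromatin remodelling subunit, so the protein behind these peaks is not settled by the labels.

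In stressed cells p53 is stabilised, binds DNA at paired copies of a short motif near its target genes and raises their transcription. The genes described here belong to its metabolic and stress arm. Sestrins, encoded by Sesn1 and Sesn2, and the Ddit4 product REDD1 restrain the growth kinase complex mTORC1, and Gls2 encodes a mitochondrial glutaminase that makes glutamate from glutamine. Trp53inp1 encodes a stress protein of the nucleus and of autophagy, Zmat3 a zinc-finger protein that binds RNA, and Phlda3 a pleckstrin-homology protein that holds back the kinase Akt.

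RefSeq start sites were matched for 4 of the genes, with 1 site each for Sesn2, Phlda3 and Ddit4 and 2 for Sesn1. The 250 bases before 4 of these sites are shown because peaks described below overlap them, though not every summit lies inside (GRCm38.p6, the assembly of mm10). Each runs 5′ to 3′ on the gene's own strand. The first Sesn1 start, not shown, also had a peak, of mTEClo replicate 1 alone, 61 bp before it (percentile 38.5). Capitals mark GGGCGG and CCAAT on either strand, thus also CCGCCC and ATTGG, and, before the second Sesn1 start, a match of 10 bases to the p53 decamer motif.
Ddit4, chr10:59951771-59952020, minus strand: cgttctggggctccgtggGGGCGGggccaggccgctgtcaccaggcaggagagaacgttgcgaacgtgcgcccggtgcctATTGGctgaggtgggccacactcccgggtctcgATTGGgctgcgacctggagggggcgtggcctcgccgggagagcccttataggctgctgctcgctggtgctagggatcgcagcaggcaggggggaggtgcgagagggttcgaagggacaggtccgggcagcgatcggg
Sesn2, chr4:132510457-132510706, minus strand: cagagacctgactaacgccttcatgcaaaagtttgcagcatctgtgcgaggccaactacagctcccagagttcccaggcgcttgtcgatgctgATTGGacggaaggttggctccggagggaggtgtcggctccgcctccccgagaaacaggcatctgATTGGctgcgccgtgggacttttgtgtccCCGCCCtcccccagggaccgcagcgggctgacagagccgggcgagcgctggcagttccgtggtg
Phlda3, chr1:135765835-135766084, plus strand: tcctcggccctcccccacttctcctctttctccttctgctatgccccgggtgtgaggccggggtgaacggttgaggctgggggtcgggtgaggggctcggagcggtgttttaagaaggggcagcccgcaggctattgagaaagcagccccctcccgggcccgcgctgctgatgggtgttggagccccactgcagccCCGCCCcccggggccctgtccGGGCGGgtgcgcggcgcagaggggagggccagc
Sesn1, second start, chr10:41887189-41887438, plus strand: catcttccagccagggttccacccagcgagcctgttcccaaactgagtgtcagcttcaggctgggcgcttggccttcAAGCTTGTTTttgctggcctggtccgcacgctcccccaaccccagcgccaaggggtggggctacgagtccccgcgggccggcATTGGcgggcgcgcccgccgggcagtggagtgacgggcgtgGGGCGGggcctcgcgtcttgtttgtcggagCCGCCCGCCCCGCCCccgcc

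Each library has its own peak list. The mTEClo lists hold 89809 and 69359 peaks and the mTEChi lists 73510 and 85308, and depth is unknown. The authors' score of a peak orders it within its own list, and the position is given here as a percentile, where 100 is the top and tied peaks share a mean rank. Scores and percentiles come from lists of different length and are not compared as levels. Peaks of any library that shared at least 1 bp were merged into regions, and a region found in the 2 libraries of a state but in no library of the other is called mTEClo-only or mTEChi-only. A control antibody library was not analysed here. Separate mice for the replicates are not named in the labels, so the p-value given below rests on library-to-library spread that could be technical alone. As a check of the cells, 10 of 12 thymic epithelial marker genes, 6 of 10 thymocyte markers, 1 of 8 B and myeloid markers and 4 of 7 fibroblast and endothelial markers had a peak in all 4 libraries, against 51.9% of all genes. A peak is not expression, so this does not measure the makeup of the sorts.

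The mTEClo lists had a peak at 7 and 6 of the genes (background 75.5% and 68.8% of all genes) and the mTEChi lists at 7 and 6 (background 69.3% and 73%). All 7 genes had a peak in at least 3 libraries, and 5 of them, Sesn1, Sesn2, Trp53inp1, Gls2 and Ddit4, had one in all 4. Of all protein-coding genes 51.9% had a peak in all 4 by the same rule, so a peak as such is common. Both mTEClo libraries held a peak at 6 of the genes (background 63.1%), and both mTEChi libraries at 6 (background 61.2%). Zmat3 lacked a peak in mTEClo replicate 2 and Phlda3 lacked one in mTEChi replicate 2. None of the 7 had its peaks in 1 state alone, with both of its libraries positive and both others empty, a pattern found in 2.14% of all genes for mTEClo and 1.67% for mTEChi. Without mTEClo replicate 1, Zmat3 had peaks in mTEChi alone, and without mTEChi replicate 1, Phlda3 had peaks in mTEClo alone (1 gene each). The share of all genes with a library left out is not given here.

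What set the genes apart from each other was where their peaks lay and whether several libraries had them at 1 position. The 76 peaks formed 45 regions, of which 28 were held by 1 library, 11 by 2, 1 by 3 and 5 by all 4. In percent this is 62.2, 24.4, 2.22 and 11.1, and over the 149174 regions in the windows of all protein-coding genes it was 82.6, 10.8, 3.74 and 2.84. The 5 shared regions lay at Ddit4, Sesn2, Trp53inp1 and, with 2 of them, Sesn1, so 4 of the 7 genes held at least 1, and 22.7% of all genes did. Of the Sesn1 regions, 1 reached into a neighbouring gene, as described below, and 4 shared regions remained when only peaks nearest to each gene were counted. Of the 23 peaks in those regions 19 lay within 1 kb of a gene end, and their median percentile was 83.3. Of the 28 peaks found in 1 library 4 lay that close, their median percentile was 36.9, and none was in the top 10% of its list. The same places and percentiles over all genes are not given here, so they are not shown to be particular to the 7.

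**Figure D1:**
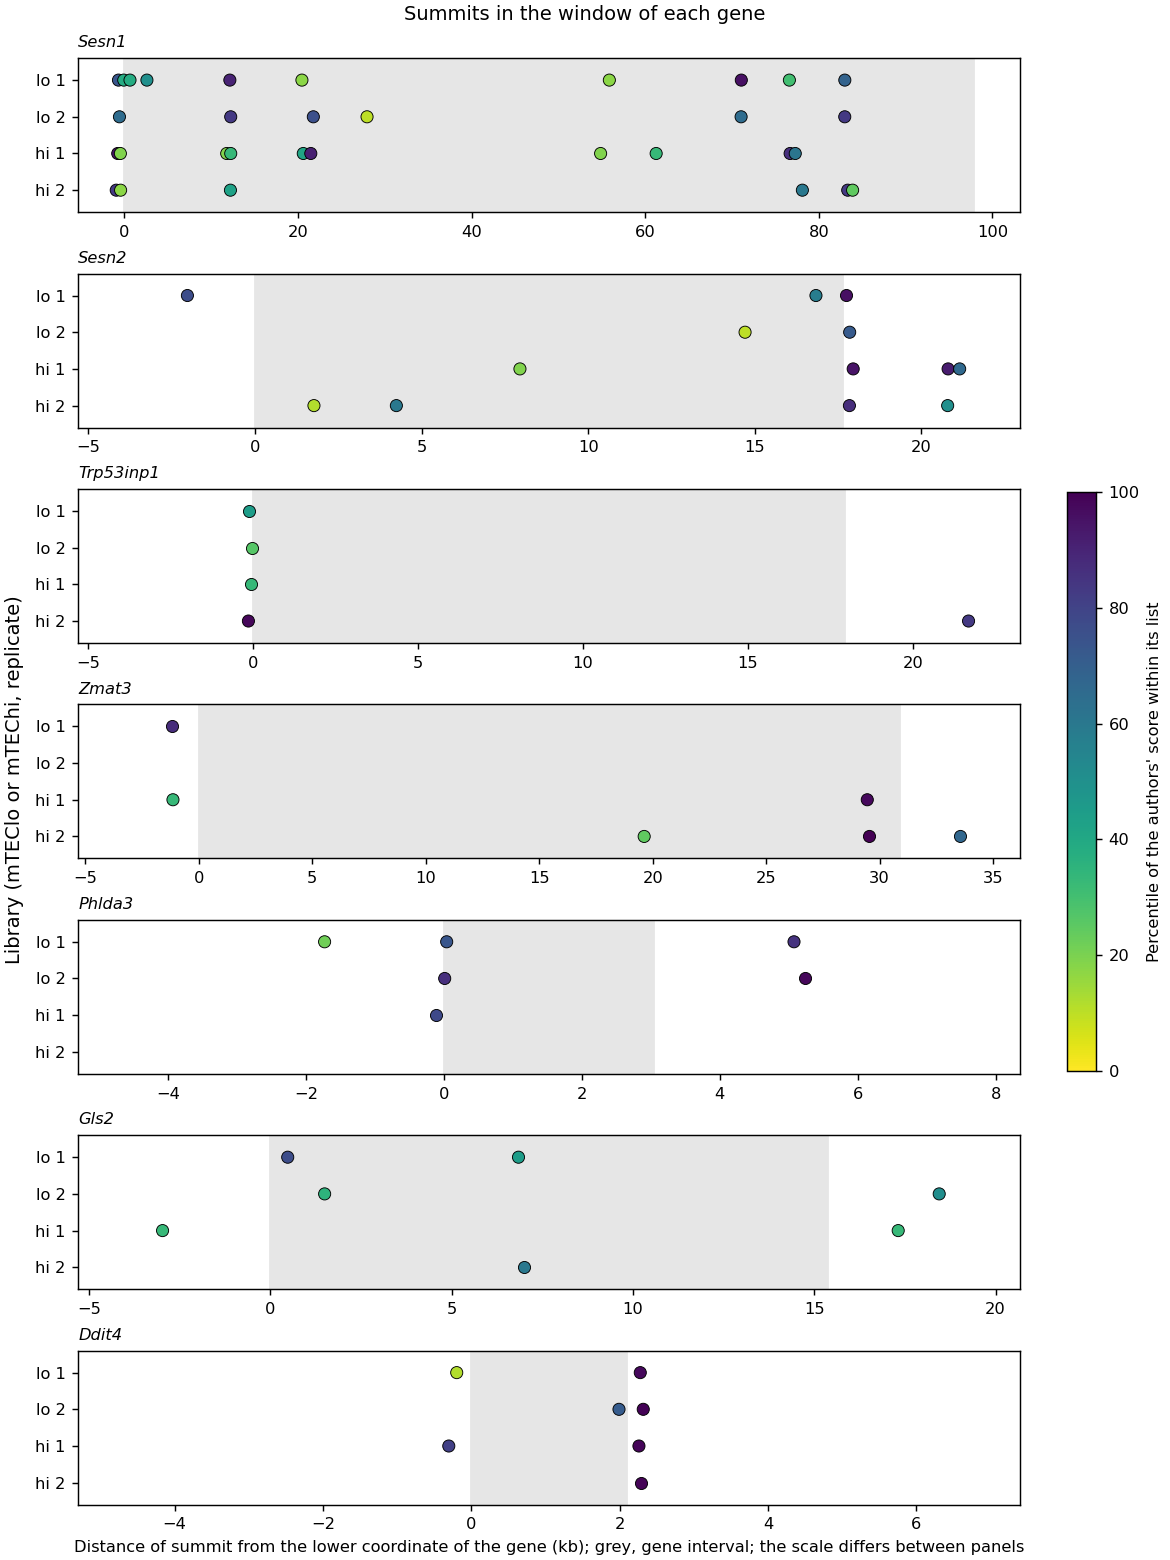
Position of every summit in the window of each gene, as distance in kb from the lower coordinate of the gene (x axis, scaled per panel), in 4 rows of libraries (lo 1 and lo 2, mTEClo replicates 1 and 2; hi 1 and hi 2, mTEChi replicates 1 and 2). Point colour is the percentile of the score within its own list and grey is the gene interval; the summits of all 4 libraries line up at Ddit4, Sesn2 and Trp53inp1, and those at Gls2 do not.

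Ddit4 (chromosome 10, 59949675 to 59951770) had the narrowest range of best percentiles among the 7 genes. REDD1, its product, shuts down mTORC1 through the TSC complex when cells lack oxygen or suffer DNA damage. The best summits lay 183 and 223 bp before the start site in the mTEClo lists and 165 and 199 bp before it in the mTEChi lists, all inside the sequence shown above. Their authors' scores were 12.7, 15.0, 18.7 and 13.2 in that order. The percentiles were 98.0, 99.5, 98.5 and 99.1, so the site was among the top 2% of every list and the states overlapped. Among the 5162 regions of the genome held by all 4 libraries it took place 378 by its lowest percentile. mTEClo replicate 2 had a further summit 104 bp past the start, at percentile 71.1. Weaker peaks lay just outside the other end of the gene in the first replicates alone, with percentiles of 11.5 in mTEClo and 81.2 in mTEChi.

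Sesn2 (chromosome 4, 132492804 to 132510456), whose product senses leucine and restrains mTORC1, also had its best peak of every library at the start site. The summits lay 100 and 195 bp before it in mTEClo and 300 and 187 bp before it in mTEChi. Percentiles were 96.0 and 71.7 for mTEClo and 94.9 and 86.8 for mTEChi. The first replicates were higher than the second in both states, and the states overlapped. Sesn2 had 3 and 2 mTEClo peaks against 4 and 4 mTEChi peaks, with no overlap. More peaks in both mTEChi libraries than in either mTEClo library were found at 8.4% of all genes. Within 1 kb of the gene ends the order turned, with mTEChi minus mTEClo at -0.5 peaks on average. A mTEChi-only region (chr4:132513441-132513754) lay 3148 and 3135 bp before the start, at percentiles 92.4 and 50.3. It took place 1859 of 4766 mTEChi-only regions by its lower percentile. The other 7 regions in the window were each held by 1 library.

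A stronger Sesn2-side site lay just outside the window. Its summits stood 5174 to 5214 bp before the start, in all 4 libraries, between percentiles 98.7 and 99.4 (chr4:132515480-132515820), and Sesn2 was the nearest protein-coding gene. The outermost peak counted for any of the genes was one of Trp53inp1, 3746 bp from its upper end in mTEChi replicate 2 (percentile 83.3). Between 5 and 10 kb from the genes lay 34 peaks, against 36 within 5 kb of them and outside their intervals. They include all-library regions 5645 to 5771 bp and 6103 to 6345 bp from Phlda3 and 9156 to 9297 bp from Trp53inp1.

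Sesn1 (chromosome 10, 41810574 to 41908436), the longest of the genes with 97.9 kb, encodes the other p53-induced sestrin and had 32 of the 76 peaks. The genes Cep57l1 and Armc2 reached into its window. Each state had 10 peaks in its first replicate and 6 in its second. The means were equal, 8 ± 2.83 in each state (SD, n = 2), and the gap lay between the replicates. Per 10 kb of window this is 0.927, 0.556, 0.927 and 0.556 peaks, where the median over all genes was 0.520, 0.368, 0.372 and 0.476 in the same order of libraries.

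The first all-library region at Sesn1 lay outside the gene, before its first start site, and reached into the neighbouring Cep57l1. Its best summits stood 669 and 556 bp before the first start site in mTEClo and 753 and 925 bp before it in mTEChi, at percentiles 73.7, 64.9, 94.7 and 83.3. Both mTEChi libraries were above both mTEClo libraries in these best percentiles. Those best mTEChi summits fell inside the interval of Cep57l1, so the region cannot be given to 1 of the 2 genes. Each mTEChi library had a further summit in the region, outside Cep57l1, 449 and 423 bp before the first start. Their percentiles were 19.1 and 17.5, below both mTEClo values. The other all-library region lay inside Sesn1, with summits 12162 to 12261 bp from the first start. There the mTEClo percentiles were 90.2 and 83.5 and the mTEChi percentiles 33.0 and 42.2, the opposite order to that of the best summits above. The share of all-library regions of the genome with either order is not given here, so neither order is shown to be particular to Sesn1. With 2 libraries per state the exact permutation test cannot pass 0.05, and percentiles of lists of different length do not show a change.

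At the second Sesn1 start, inside the gene interval, the first replicate of each state had a peak and the second did not. The mTEChi summit (percentile 86.5) lay at 41887274, inside the match AAGCTTGTTT to the p53 decamer (41887266 to 41887275), and the mTEClo summit (percentile 30.3) at 41887191. Both Sesn1 regions that were mTEClo-only lay inside the gene, away from either start site. At chr10:41881477-41881801 the summits were 24 bp apart, with percentiles 96.0 and 64.9. At chr10:41893417-41893725 they were 8 bp apart, with percentiles 68.6 and 83.5. A mTEChi replicate 2 peak at 41893910 lay beside the latter pair without overlapping it. By the lower percentile, the first of these regions took place 1503 and the second place 1320 of 7144 mTEClo-only regions. Such a region was held by 17.3% of all genes, whose median window was 27.3 kb, against 107.9 kb for Sesn1.

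Trp53inp1 (chromosome 4, 11156441 to 11174379) had 1 position and little else. Its product moves between nucleus and autophagosomes in stressed cells. All 4 libraries had a summit just outside the lower end of the gene, at 131 and 49 bp in mTEClo and 52 and 143 bp in mTEChi. The mTEClo percentiles were 44.6 and 26.4, and those of mTEChi 33.0 and 98.2. Thus 3 lists placed the site in their lower part and mTEChi replicate 2 placed it in its top 2%. No peak of any library lay inside the gene.

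Zmat3 (chromosome 3, 32334792 to 32365665), whose product binds RNA and influences splicing, held the strongest region limited to 1 state. In mTEChi the best summits lay inside the gene, 1419 and 1322 bp from its upper end, with scores of 16.1 and 21.5 and ranks of 1453 and 249 in lists of 73510 and 85308 peaks. Neither mTEClo library had a peak there (chr3:32364096-32364493). By the lower of its percentiles, 98.0, the region took place 27 of the 4766 mTEChi-only regions. A mTEChi-only region of any rank was held by 12.7% of all genes and by 2 of the 7, Zmat3 and Sesn2. Zmat3 had 1 and 0 mTEClo peaks against 2 and 3 mTEChi peaks, with no overlap. Such an order, with more peaks in both mTEChi libraries, was found at 8.4% of all genes. The 1 mTEClo peak lay 1185 bp outside the lower end at percentile 87.2, and mTEChi replicate 1 had a weaker one beside it (percentile 33.0).

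Phlda3 (chromosome 1, 135766085 to 135769134), whose product competes with Akt for membrane lipids, went the other way. It had 3 and 2 peaks in mTEClo and 1 and 0 in mTEChi, with no overlap. More peaks in both mTEClo libraries than in either mTEChi library were found at 9.27% of all genes. At the start site 3 libraries had a peak, 41 and 12 bp past it in the mTEClo lists and 107 bp before it in mTEChi replicate 1, at percentiles 73.1, 86.6 and 78.1. A mTEClo-only region (chr1:135771011-135771478) lay 2027 and 2194 bp outside the upper end, past the far end of the gene, at percentiles 85.4 and 98.2. It took place 511 of 7144 mTEClo-only regions, and 17.3% of all genes held such a region.

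Gls2 (chromosome 10, 128194635 to 128210004), the glutaminase gene, had peaks in every library but no common position. The mTEClo lists held 2 and 2 peaks and the mTEChi lists 2 and 1. The best mTEClo peaks reached percentiles of 77.0 and 51.2 and the best mTEChi peaks 33.0 and 60.0, each at another place. Of its 6 regions 5 were held by 1 library, and the remaining one, 6842 and 6991 bp inside the lower end, was held by mTEClo replicate 1 and mTEChi replicate 2. Peaks on the upper side, of mTEClo replicate 2 and mTEChi replicate 1, lay past the neighbouring gene Spryd4, which overlaps the end of Gls2.

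**Figure D2:**
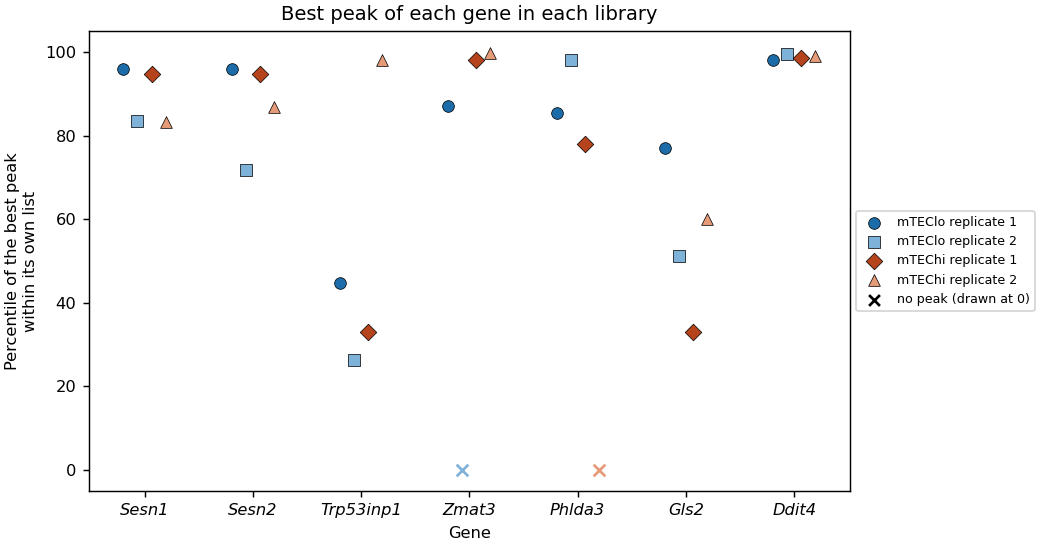
Percentile of the best peak of each gene within its own list (y axis, 100 is the top), for the 4 libraries, with a cross at 0 where a library had no peak. Ddit4 lies between 98.0 and 99.5 in every library, Zmat3 reaches 98.0 and 99.7 in the mTEChi libraries, and Gls2 stays at or below 77.0.

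Summed over the genes, the states did not differ beyond the spread between libraries. An mTEClo library had 18.5 ± 4.95 peaks on average and an mTEChi library 19.5 ± 3.54 (SD, n = 2 each), a difference of 1.00 (two-sided exact permutation test, p = 1; the smallest p that 2 libraries against 2 can give is 0.33). The sign of that difference turned when mTEClo replicate 2 was left out (-2.50) and when mTEChi replicate 1 was left out (-1.5). By gene, mTEChi minus mTEClo was 2.00 peaks at Zmat3, 1.5 at Sesn2, 0.50 at Trp53inp1, 0 at Sesn1, -0.50 at Gls2 and at Ddit4, and -2.00 at Phlda3.

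**Figure D3:**
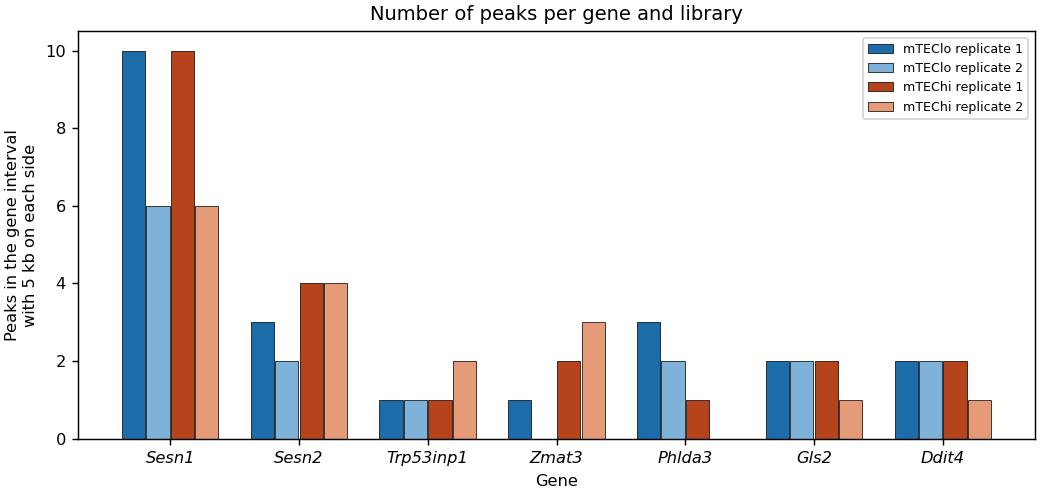
Number of peaks in the interval of each gene with 5 kb on each side (y axis), 1 bar per library, with no bar where a library had none. The bars of the states do not overlap at Sesn2, Zmat3 and Phlda3, and at Sesn1 both states have 10 and 6. Of all genes, 8.4% had more peaks in both mTEChi libraries than in either mTEClo library, and 9.27% the reverse.

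The start-site windows were searched for common promoter letters and for p53 motifs. Each window spanned 250 bases before a start to 50 after it, and a peak of all 4 libraries overlapped 2 of the 5 windows, those of Ddit4 and Sesn2, against 8.68% of 32851 RefSeq windows. GGGCGG, the core of the Sp1 motif, was in 5 of 5 windows (35.7% of all), and CCAAT, bound by NF-Y, in 4 of 5 (37.4%), all but that of Phlda3. The upstream sequences of the 5 windows were 63.2% to 71.2% G and C, where the median of all was 52.4%. The p53 decamer matched in 1 of 5 windows (8.36% of all), that of the second Sesn1 start, and a pair of decamers 0 to 13 bases apart in none (0.0731% of all). TGANTCA (7.81% of all), TGACGTCA (1.79%), CACGTG (7.15%) and TGATGNAA (3.97%), searched on both strands, were in none of the 5. A match is a description of letters and not a bound site. Zmat3, Trp53inp1 and Gls2 were not part of this search.

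Related genes gave counts of the same order. Of 40 other p53 targets, 35 had a peak in both mTEClo libraries (background 63.1%), 38 in both mTEChi libraries (61.2%) and 33 in all 4 (51.9%). Mdm2, the gene of the ligase that degrades p53, was the 1 with peaks in both mTEChi libraries (2 and 1) and in neither mTEClo library. This is 2.5% of the list, near the 1.67% of all genes with that pattern. For each gene the median of its best percentiles over the 4 libraries was taken. A library without a peak was entered at the bottom of the scale. The median of these values over genes was 89.1 for the 7 genes, 88.9 for the other targets and 63.2 for all genes. The value for all genes includes 2765 genes without a peak in any library. The gap thus mixes the presence of a peak with its rank. Closest to the median profile of the 7 over the 4 libraries were Sulf2, Bbc3 and Pidd1, at distances of 6.10, 18.1 and 19.2 percentile points. The best Sulf2 percentiles were 87.2 and 75.7 for mTEClo and 93.9 and 91.4 for mTEChi, beside medians of 87.2, 71.7, 94.7 and 86.8 for the 7.

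Among 10 family relatives of the 7 genes, 6 had peaks in all 4 libraries (background 51.9% of all genes) and the rest in 1 or 2. Sesn3, the sestrin gene that is not among the 7, had best percentiles of 99.1, 99.8, 99.9 and 98.4, higher than Sesn1 and Sesn2 in every list within the 5 kb windows. The Sesn2 site just outside its window was above Sesn3 in mTEClo replicate 1 (percentile 99.4) and mTEChi replicate 2 (99.1). Trp53inp2, Zmat2, Zmat4 and Zmat5 also had a peak in all 4. Ddit4l and Phlda1 had 1 peak each, in mTEClo replicate 1, Phlda2 had 3 peaks in mTEClo replicate 1 and 1 in mTEChi replicate 1, and Zmat1 had 1 in mTEChi replicate 2.

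Of 20 genes of mTORC1 and of the energy sensor AMPK, on which sestrins and REDD1 act, 17 had a peak in all 4 libraries (background 51.9%). Their median window was 46.3 kb, against 27.3 kb for all genes and 27.7 kb for the 7, and longer windows hold more peaks. Glutamine and redox genes had 10 of 16 in all 4 (62.5%, near the background). Among them Glul, the glutamine synthetase gene, had peaks in mTEClo alone (1 and 2, best percentiles 95.6 and 83.5), a pattern found at 2.14% of all genes. Integrated stress response genes had 6 of 10 in all 4, also near the background. Chac1, which encodes a glutathione-degrading enzyme, had peaks in mTEChi alone (1 and 2, best percentiles 61.1 and 42.2), a pattern found at 1.67% of all genes.

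**Figure D4:**
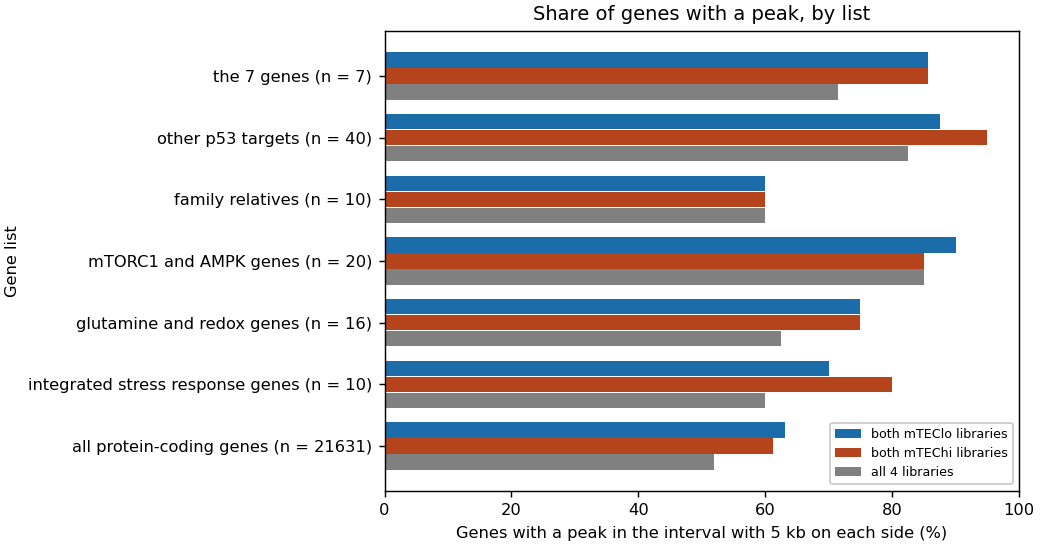
Percentage of the genes of each list (y axis) with a peak in both mTEClo libraries, both mTEChi libraries or all 4 libraries (x axis). The bar for all 4 libraries stands at 71.4% for the 7 genes, 82.5% for the other p53 targets and 51.9% for all protein-coding genes.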

How the data were processed

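Peak lists of 4 CUT&RUN libraries, 2 of mTEClo and 2 of mTEChi, were used; groups and replicate numbers came from the sample titles. The submitters' processing notes name mm10, MACS2 2.2.7.1, Bowtie2 2.2.9, SAMtools 1.9 and Picard; peak settings and controls: not given in the sources used here. Each library was deposited by the authors as 1 list of 301 bp intervals around a summit, with a score taken to be a −log10 p-value or q-value, which of them not being stated. The score served only to rank peaks within a list.

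Genes, and start sites where matched, came from RefSeq tables of GRCm38.p6; exons were not used. Peaks were counted in gene intervals with 5 kb on each side, merged at 1 bp of overlap, and compared over libraries by the exact permutation test. Scripts were tested on simulated data.

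The 7 genes, the 5 other gene lists and the marker lists were chosen with earlier results of these data known. Named are the 7 genes, genes reaching into their windows, the family relatives, the 3 other p53 targets nearest in profile, and up to 3 genes per list with peaks in 1 state alone. A gene that this rule names among the relatives is not reported here. Sites just outside the window were named after their values were seen. Alternatives were peaks at or above the list median, equal list lengths of 69359, the 10000 highest peaks, windows of 1 and 10 kb, gene ends alone, each library left out, summits within 75 bp, peaks per 100000 of a list, the replicate number as a block, 1 mismatch in the decamer and, added after seeing the data, peaks nearest to the gene. Python 3.11.15, numpy 2.4.6, pandas 2.3.3 and matplotlib 3.10.9 were used.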

Additional observations from a re-analysis of the deposited data

How the results depend on the processing

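Peak lists hold no read counts, so depth is unknown, and a missing peak is a site below the authors' limit. Shares of all genes and regions under the changed settings of this section are not given here. The counts below thus have no background beside them. With peaks at or above each list's median, 3 genes had a peak in all 4 libraries and 3 regions were held by all 4. With the 10000 highest peaks, 1 gene had a peak in both mTEClo libraries, 2 in both mTEChi libraries, 1 in all 4 and 1, Zmat3, in mTEChi alone. There 1 region was held by all 4 libraries, 0 were mTEClo-only and 1 was mTEChi-only. With 1 kb around the genes, Zmat3 was again the 1 gene with peaks in mTEChi alone and 1 region was mTEChi-only. With 10 kb, 9 regions were held by all 4 libraries. Within 1 kb of gene ends, 0 regions were mTEClo-only, 0 were mTEChi-only, and the difference in summed peaks turned to -2.00. Summits within 75 bp of each other gave 2 regions in all 4 libraries. With only peaks nearest to the gene, 4 regions were held by all 4 libraries. There the difference in summed peaks was 0, and mTEChi minus mTEClo at Sesn1 was -1.

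Leaving out 1 library in turn, the difference in summed peaks ran from -2.50 to 4.50 (exact permutation test, p = 0.667 to 1). mTEClo-only regions ran from 3 to 11 and mTEChi-only regions from 2 to 10, since 1 list then suffices. Genes with peaks in mTEChi alone numbered 0 to 1 and in mTEClo alone 0 to 1. With 1 mismatch allowed, the decamer matched in 2 of 5 windows, against 50.9% of all RefSeq windows. The deviations of same-numbered libraries had a correlation of -0.0442 over genes. With 2 libraries per state the deviations are mirror images, so the crossed pairing gives the same value with its sign turned (0.0442). This cannot tell whether same-numbered libraries were prepared together, so their pairing is not settled. Summed over the described genes, the first replicates had 22 peaks in mTEClo and 22 in mTEChi, and the second 15 and 17. With the replicate block the difference in summed peaks was 1.00 (exact sign-flip test over 2 pairs, p = 1, the smallest it can give being 0.500). Phlda3 kept fewer peaks in mTEChi in 11 of 11 alternatives, and Zmat3 had more in 10 of 11 and equal numbers in 1. Sesn2 had more in 10 of 11 and turned to -0.5 within 1 kb of gene ends, and Gls2 turned from -0.5 to 1 with 10 kb. Trp53inp1 had more in 8 of 11 and equal numbers in 3, and Ddit4 had fewer in 7 of 11 and equal numbers in 4. Sesn1 ran from -2 to 2. All alternatives reuse the same 4 lists, so the tallies are not independent checks.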
